A study of Mus musculus with 6 samples.

Results

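The 31 genes described here carry cholesterol through the cell: they make it, control its making, limit its uptake, move it between membranes, store it and export it. They were chosen by name from a list of 32 symbols, of which Sc4mol is the older name of Msmo1. Each of the 31 genes matched 1 row among the 23203 deposited loci, and Tm7sf2 shared its row with 1110014N23Rik. Mouse naive CD4 T cells were stimulated for 48 h with anti-CD28 (1 µg/ml) and anti-CD3e bound to the plate (10 µg/ml). The medium held the Th17 cytokines IL-23 (10 ng/ml), IL-6 (20 ng/ml) and TGFb1 (2.5 ng/ml). The 3 vehicle cultures received DMSO and the 3 2DG cultures received 250 µM 2-deoxyglucose, a sugar analogue that blocks early glycolysis, and each culture gave 1 RNA library. Both groups thus shared the stimulation and the cytokines, and the strain and age of the mice are not given in the labels. No label tells whether a group's libraries stem from different mice, so the p-values below measure a spread that may be technical. The design asks how transcripts of Th17 cells differ between cultures with 2DG and with vehicle.

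Cholesterol is built from acetyl-CoA through mevalonate, farnesyl pyrophosphate, squalene and lanosterol. Its genes are switched on together by SREBP2, a membrane-bound transcription factor: when sterols are scarce, SCAP escorts it from the endoplasmic reticulum to the Golgi, where it is cut free, and when sterols are plentiful, INSIG proteins hold SCAP back. Surplus sterol turns on the opposite programme through the LXR nuclear receptors, which raise the exporters ABCA1 and ABCG1 and the ubiquitin ligase IDOL. T cells raise sterol synthesis when they are activated.

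Values were FPKM: fragment numbers divided by transcript length, so that levels of different genes can be compared, and by a measure of library size. How library size was scaled is not given in the sources. Loci with small RNA genes held from 72.1% (vehicle replicate 1) to 78.2% (2DG replicate 2) of the summed FPKM. With no read counts in use the depth is unknown, and steps between low values gave only rough estimates relative to vehicle replicate 1: the shallowest library was vehicle replicate 2 (0.414) and the deepest 2DG replicate 1 (1.10). Log2 fold changes are those of limma on log2(FPKM + 1), 2DG minus vehicle, which understates the change of low genes. P-values were adjusted by Benjamini-Hochberg over the 10228 loci whose mean over the 6 libraries reached 1 FPKM, and the threshold was 0.05. At this threshold 1.53% of these loci were higher and 1.19% lower with 2DG. All 6 matched T cell markers were above the filter, and they summed to 1114 to 1283 FPKM with vehicle and 848 to 993 FPKM with 2DG. Of these 6, 1 fell and 0 rose: Cd2, an adhesion receptor, had mean levels of 499 (vehicle) and 216 FPKM (2DG; limma adjusted p = 0.00402), while those of Cd3e were 47.9 and 54.8 FPKM and those of Cd4 102 and 94.1 FPKM. The 7 Th17 markers were all above the filter, and 3 of them rose and 0 fell, among them Il17a with means of 252 and 651 FPKM (limma adjusted p = 0.00315). The part of these marker differences in the values below was not tested. All 7 markers on the B cell list were under the filter, and their summed level was 0.620 to 4.01 FPKM with vehicle and 0.214 to 2.71 FPKM with 2DG. The 12 matched myeloid markers summed to 2.20 to 5.77 FPKM with vehicle and 1.68 to 4.70 FPKM with 2DG, and Cd209a was at 0 in every library. On the CD8 T cell and NK cell list, where Klrb1c was at 0 in every library, the 6 markers summed to 15.9 to 38.2 FPKM with vehicle and 12.0 to 23.3 FPKM with 2DG, mostly Klrd1; the part of these cells in the values below was not tested.

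To show what stands before these genes, the RefSeq promoter windows (250 bases before to 50 after a start, GRCm38.p6) of 4 members are printed 5′ to 3′: Hmgcs1 and Cyp51, whose vehicle and 2DG levels overlapped, and Ebp and Mvk, whose 2DG levels all lay below vehicle. Capitals mark TCACNCCAC, a core of the sterol response element that SREBP binds, and CCAAT, the box that NF-Y binds, each searched on both strands, so that a CCAAT of the other strand reads ATTGG. The windows lie at chr13:119690101-119690400, plus strand (Hmgcs1), chr5:4104648-4104947, minus strand (Cyp51), chrX:8193463-8193762, minus strand (Ebp) and chr5:114444019-114444318, plus strand (Mvk).
Hmgcs1: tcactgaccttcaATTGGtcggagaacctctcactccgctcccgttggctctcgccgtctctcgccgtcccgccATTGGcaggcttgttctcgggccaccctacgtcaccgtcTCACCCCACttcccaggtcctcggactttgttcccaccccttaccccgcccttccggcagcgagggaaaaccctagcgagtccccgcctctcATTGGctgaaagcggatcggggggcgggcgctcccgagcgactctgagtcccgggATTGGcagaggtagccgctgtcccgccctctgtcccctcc
Cyp51: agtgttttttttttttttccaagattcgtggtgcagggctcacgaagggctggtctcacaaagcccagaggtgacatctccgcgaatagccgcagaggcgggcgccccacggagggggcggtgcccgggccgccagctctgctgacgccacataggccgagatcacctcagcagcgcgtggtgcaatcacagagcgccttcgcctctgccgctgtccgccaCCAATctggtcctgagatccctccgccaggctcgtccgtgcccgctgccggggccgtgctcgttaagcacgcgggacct
Ebp: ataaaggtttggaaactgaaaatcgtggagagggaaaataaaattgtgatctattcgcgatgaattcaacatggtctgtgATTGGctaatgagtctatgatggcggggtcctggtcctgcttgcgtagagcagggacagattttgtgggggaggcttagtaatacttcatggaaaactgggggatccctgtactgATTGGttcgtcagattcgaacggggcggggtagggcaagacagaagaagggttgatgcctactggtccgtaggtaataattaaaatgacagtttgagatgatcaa
Mvk: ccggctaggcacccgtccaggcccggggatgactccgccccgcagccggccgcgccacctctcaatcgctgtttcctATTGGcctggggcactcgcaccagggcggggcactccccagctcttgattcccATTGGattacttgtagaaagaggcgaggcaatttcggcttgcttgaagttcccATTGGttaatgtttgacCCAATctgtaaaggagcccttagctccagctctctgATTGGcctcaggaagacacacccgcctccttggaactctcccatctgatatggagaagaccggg
The Hmgcs1 window held 1 TCACNCCAC and 4 CCAAT matches, the Cyp51 window 1 CCAAT match, the Ebp window 2 and the Mvk window 5. No marked match shared bases with another.

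A window was listed for 25 of the 31 genes, and none for Fdps, Fdft1, Sqle, Stard4, Npc1 and Abcg1. In 21 of these 25 genes (84.0%) at least 1 listed window held CCAAT, against 41.1% of the 27025 genes with a window, expressed here or not. Counted by window, the share was 66.7% of 33 member windows and 37.4% of all 32851 windows. Among synthesis enzymes it was 14 of 15 genes, and among the other steps 7 of 10. The sterol response element core was found in 1 gene, Hmgcs1 (1 of 25, against 1.44% of all genes with a window). CCAAT was found in 5 of the 6 genes with a window whose 2DG libraries all lay below vehicle, and in 16 of the other 19. Dhcr7, among these 5, held it only in the window starting at 143829964, not in those starting at 143822917 and 143823149. A match is a description of the letters and not a bound site. Only 1 exact core was searched in windows of 300 bases, so a gene without a match may still have a sterol response element.

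None of the 31 genes passed the limma test in either direction with 2DG. In bulk RNA, fewer cells of a kind and less RNA per cell cannot be told apart. All 31 were expressed above the filter, with mean levels over the 6 libraries from 1.36 FPKM (Mylip) to 87.5 FPKM (Npc2). Over all tested loci 156 (1.53%) were higher and 122 (1.19%) lower with 2DG at an adjusted p under 0.05. Leaving out vehicle replicates 1, 2 and 3 in turn gave 86, 60 and 83 higher and 60, 25 and 56 lower loci. Leaving out 2DG replicates 1, 2 and 3 in turn gave 52, 53 and 98 higher and 29, 26 and 69 lower loci. In each of these 6 fits no cholesterol gene was called. At an unadjusted limma p under 0.05, 7 of the 31 genes were lower (22.6%) and 1 was higher (3.23%), against 8.82% and 9.07% of the tested loci. The 3 2DG libraries all lay below the 3 vehicle libraries in 8 of the 31 genes (25.8%), against 11.8% of the tested loci, and all above in 1 gene (3.23%), against 11.9%. The median log2 fold change of the 31 genes was -0.10, with a range from -0.42 to 0.24, and the median over all tested loci was -0.01. In 21 of the 31 genes (67.7%) the estimate was below 0, as in 52.1% of the tested loci.

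The intervals bound what may have been missed. For 23 of the 31 genes the 95% interval of the log2 fold change lay within 1.5-fold of FPKM + 1 in either direction. For the other 8 it reached past this bound downwards, at the lowest to -0.79 for Mylip. On this scale none of the 31 reached past it upwards, the highest upper bound being 0.55 for Hsd17b7. For low genes the bound is a larger fold in FPKM itself. With a pseudocount of 0.1 the estimate of Idi1 was 0.16 ± 0.19 (SE), against 0.13 ± 0.15 in the main fit. For Mylip, the lowest gene, the ratio of mean FPKM, 2DG over vehicle, was 0.659, while the estimate on log2(FPKM + 1) was -0.36. The median coefficient of variation of the 31 genes was 11.6% with vehicle and 11.3% with 2DG, against 10.9% and 9.76% over all tested loci.

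**Figure D1:**
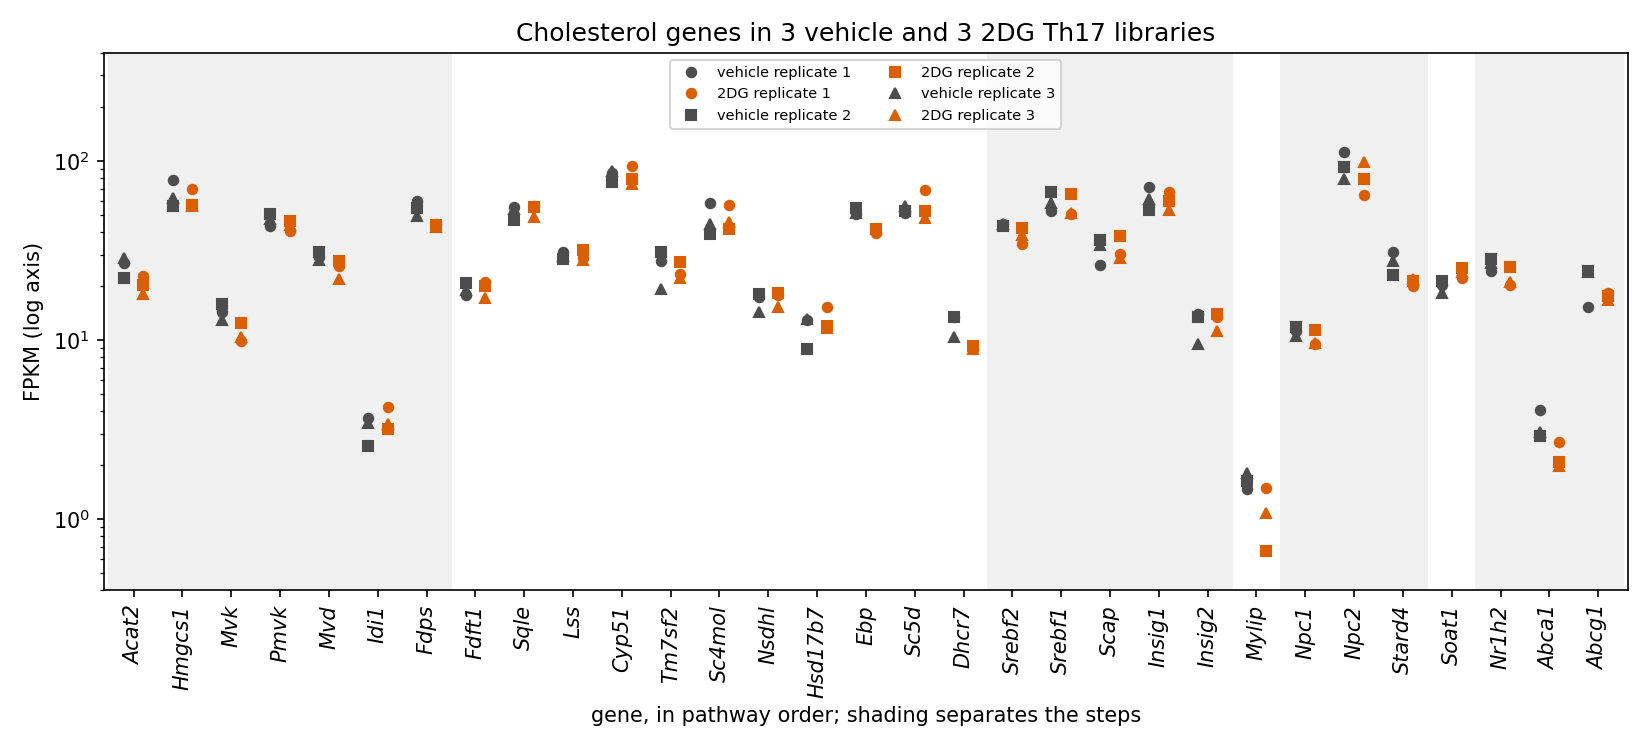
FPKM (log axis) of each of the 31 cholesterol genes in pathway order; grey points are the 3 vehicle libraries, orange points the 3 2DG libraries, and the marker shape gives the replicate number. Levels run from 0.660 FPKM for Mylip in 2DG replicate 2 to 112 FPKM for Npc2 in vehicle replicate 1, and for most genes the colours intermingle.

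The first stretch of the route, from acetyl-CoA to farnesyl pyrophosphate, had estimates below 0 in 6 of 7 enzymes and a median log2 fold change of -0.22. Of all tested loci 52.1% had an estimate below 0, and the median over these loci was -0.01. Mvk, the kinase that phosphorylates mevalonate (chromosome 5, 114444269 to 114460591), was at 14.3, 16.0 and 12.9 FPKM in vehicle replicates 1 to 3 and at 9.92, 12.5 and 10.4 FPKM in 2DG replicates 1 to 3. All 2DG libraries lay below all vehicle libraries, though 2DG replicate 2 came close to vehicle replicate 3. Its log2 fold change was -0.37 ± 0.12 (SE; limma adjusted p = 0.165).

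Fdps, which joins isoprene units into farnesyl pyrophosphate, the branch point to sterols, dolichol and prenyl groups (chromosome 3, 89093588 to 89101959), was at 59.9, 54.3 and 49.2 FPKM with vehicle and at 44.2, 43.9 and 42.8 FPKM with 2DG. The groups did not overlap, and the 2DG libraries lay closer together (43.7 ± 0.712 FPKM, SD, n = 3) than the vehicle libraries (54.5 ± 5.36 FPKM). The log2 fold change was -0.31 ± 0.09 (SE; limma adjusted p = 0.126). Of its annotated exon bases 26.7% are shared with Gm43738, an overlapping gene on the same strand, so its reads may have been split.

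Mvd, the decarboxylase that makes isopentenyl pyrophosphate, was at 29.0, 31.0 and 27.8 FPKM with vehicle and at 25.8, 27.6 and 21.8 FPKM with 2DG. The groups were only just apart, with 2DG replicate 2 beside vehicle replicate 3, and the log2 fold change of -0.22 ± 0.10 (SE) had a limma adjusted p of 0.324. Acat2, the cytosolic thiolase that joins acetyl-CoA units, was at 26.7, 22.1 and 28.8 FPKM with vehicle and at 22.6, 20.4 and 18.0 FPKM with 2DG. Its groups overlapped through vehicle replicate 2 (log2 fold change -0.33 ± 0.13, SE; limma adjusted p = 0.232), and it has a closely related neighbour, Acat3, with which reads may be shared.

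The other 3 enzymes of this stretch differed less. Hmgcs1, which makes HMG-CoA and is a standard SREBP2 target (chromosome 13, 119690379 to 119708260), was at 78.6, 56.2 and 61.8 FPKM with vehicle and at 69.2, 56.5 and 56.0 FPKM with 2DG. In both groups replicate 1 stood highest and the other libraries lay close together (log2 fold change -0.10 ± 0.14, SE; limma adjusted p = 0.757). Pmvk, the next kinase after Mvk, lay between 40.6 and 50.2 FPKM in all 6 libraries. Idi1, the isomerase, was the enzyme of lowest level, between 2.56 and 4.23 FPKM, and the only one of the 7 with an estimate above 0 (0.13).

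In the second stretch, from squalene to cholesterol, the median log2 fold change of 11 enzymes was 0.02, and 9 of them had overlapping groups. Ebp and Dhcr7, which act near the end of the route, had all 2DG libraries below vehicle. Such a separation was seen in 11.8% of the tested loci. Ebp, the sterol isomerase that moves a ring double bond (chromosome X, 8185329 to 8193512), was at 50.7, 54.8 and 51.3 FPKM with vehicle and at 39.4, 41.9 and 41.9 FPKM with 2DG. The gap between the groups was wide beside the spread within them. Its log2 fold change of -0.34 ± 0.07 (SE) had the smallest limma adjusted p of the 31 genes, 0.0572. The value passed the threshold with quantile normalization (adjusted p = 0.0430), without small RNA genes (0.0419) and with robust moderation (0.0493), and ran up to 0.316 under the other alternatives.

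Dhcr7, the reductase that completes cholesterol in one branch of the route (chromosome 7, 143823145 to 143848410), was at 13.5, 13.5 and 10.3 FPKM with vehicle and at 8.92, 9.22 and 8.95 FPKM with 2DG. The groups did not overlap, vehicle replicate 3 being the closest to the 2DG libraries. The log2 fold change was -0.41 ± 0.11 (SE; limma adjusted p = 0.121).

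The vehicle and 2DG groups overlapped in each enzyme between squalene and these last steps. Cyp51, the demethylase of lanosterol, had the highest level of all synthesis enzymes, at 86.0, 76.4 and 87.6 FPKM with vehicle and at 93.6, 79.1 and 74.5 FPKM with 2DG. The groups intermingled, and the log2 fold change of -0.02 had a 95% interval from -0.27 to 0.23. Sqle, squalene epoxidase and a rate-limiting enzyme of the route, was at 55.5, 46.9 and 53.8 FPKM with vehicle and at 55.8, 55.1 and 48.3 FPKM with 2DG. Again the groups intermingled, with an interval from -0.20 to 0.26.

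Lss, which closes squalene epoxide into lanosterol, lay between 27.8 and 31.8 FPKM in all 6 libraries, and its interval ran from -0.20 to 0.19. Fdft1, squalene synthase, lay between 17.3 and 21.0 FPKM; 18.3% of its exon bases overlap Ctsb on the opposite strand, and the use of strand in the counting is not given in the sources used here. Sc4mol and Nsdhl, which together remove methyl groups from carbon 4, had log2 fold changes of 0.03 and 0.05. Tm7sf2, a sterol reductase, shared its locus with 1110014N23Rik, so its 19.4 to 30.9 FPKM belong to both. Hsd17b7, the keto-reductase of the same demethylation, and Sc5d, the desaturase before Dhcr7, had estimates of 0.15 and 0.07. Sc5d was at 68.9 FPKM in 2DG replicate 1 and between 48.1 and 55.8 FPKM in the other 5 libraries.

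Summed over the 18 synthesis enzymes, with the shared Tm7sf2 locus included, the level was 677, 623 and 629.6 FPKM in vehicle replicates 1 to 3 and 646, 599 and 558 FPKM in 2DG replicates 1 to 3. The sums of the groups overlapped, since 2DG replicate 1 lay above vehicle replicates 2 and 3.

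**Figure D2:**
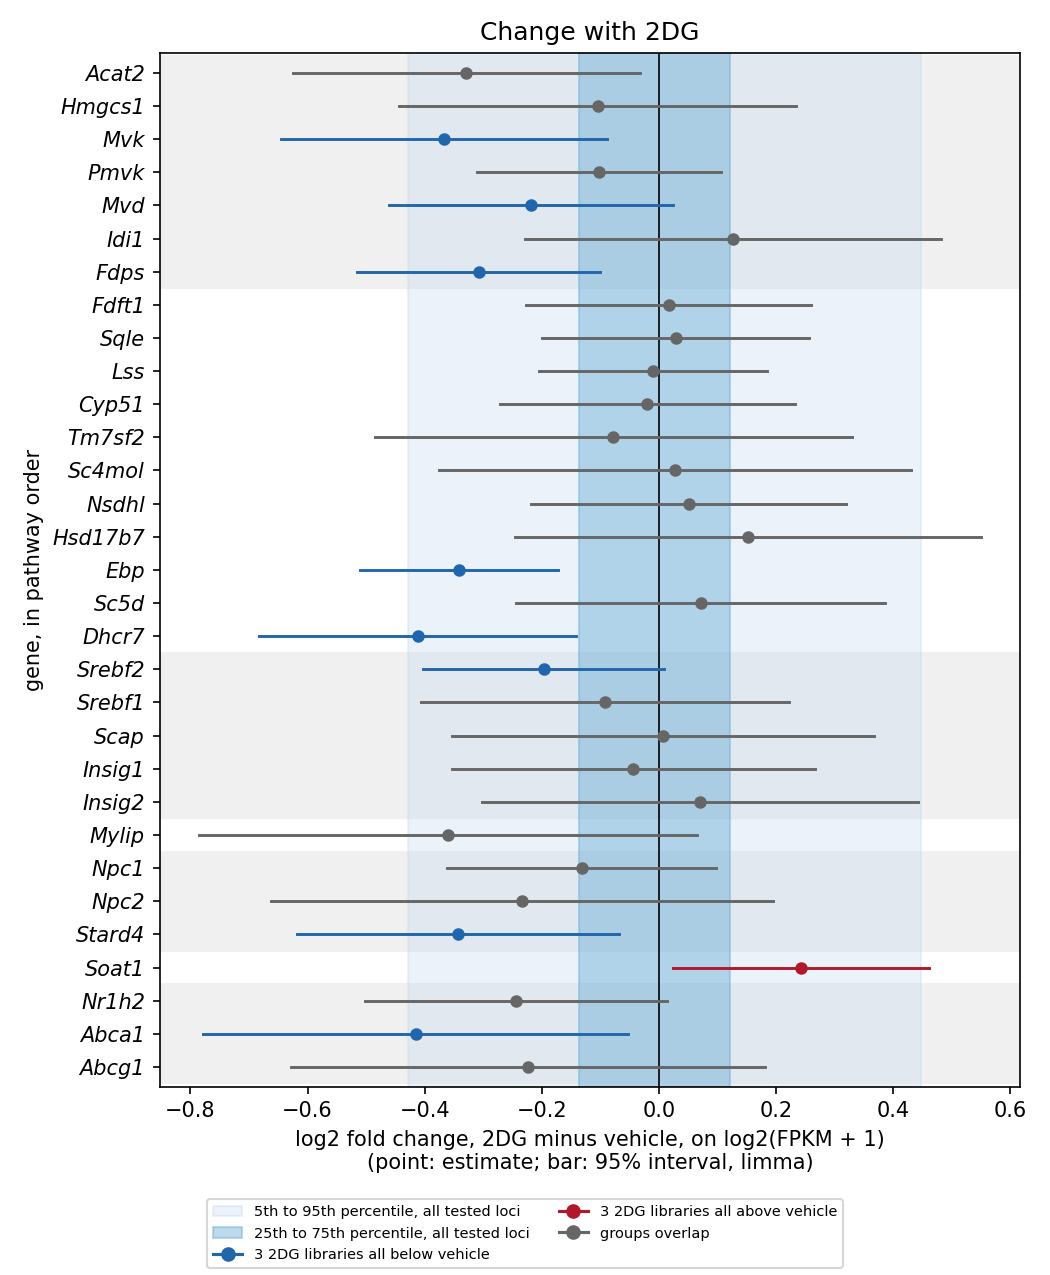
Log2 fold change, 2DG minus vehicle, of the 31 cholesterol genes in pathway order; points are limma estimates, bars their 95% intervals, and the blue bands hold the middle of all 10228 tested loci. Blue marks the 8 genes whose 2DG libraries all lay below vehicle, red the 1 gene whose 2DG libraries all lay above, and 23 of the 31 intervals hold 0.

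Among the regulators, Srebf2, the gene of SREBP2 (chromosome 15, 82147181 to 82205379), was at 44.3, 43.3 and 44.3 FPKM with vehicle and at 34.6, 42.0 and 38.4 FPKM with 2DG. The vehicle libraries lay within 1 FPKM of each other and all 2DG libraries below them, 2DG replicate 2 by little. Its log2 fold change was -0.20 ± 0.09 (SE; limma adjusted p = 0.297). Srebf1, for SREBP1, which drives mainly fatty acid genes, was at 52.5, 66.8 and 58.5 FPKM with vehicle and at 50.3, 65.7 and 51.2 FPKM with 2DG. Its groups overlapped, with replicate 2 highest in each. The table gives 1 value for this gene and so does not separate its isoforms.

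Insig1, an INSIG gene that is itself an SREBP target, was at 71.5, 53.1 and 61.4 FPKM with vehicle and at 66.8, 60.0 and 53.0 FPKM with 2DG. The groups intermingled (log2 fold change -0.04 ± 0.13, SE). Insig2, its less sterol-responsive relative, lay lower, between 9.48 and 14.04 FPKM, and Scap between 26.2 and 38.0 FPKM. Neither separated the groups, with estimates of 0.07 and 0.01.

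For uptake the list held Mylip, the gene of IDOL, which marks lipoprotein receptors for degradation (chromosome 13, 45389742 to 45412022). It was the lowest of the 31 genes, at 1.48, 1.63 and 1.81 FPKM with vehicle and at 1.49, 0.660 and 1.08 FPKM with 2DG. The groups overlapped only through 2DG replicate 1, which lay just above vehicle replicate 1. Its log2 fold change was -0.36 ± 0.18 (SE; limma adjusted p = 0.357).

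All 3 transport genes had estimates below 0, as had 52.1% of the tested loci. Stard4, a soluble carrier of sterol between membranes and a known SREBP target (chromosome 18, 33199355 to 33213862), was at 31.1, 23.0 and 27.6 FPKM with vehicle and at 20.0, 21.4 and 22.0 FPKM with 2DG. The groups did not overlap, although vehicle replicate 2 lay close to the 2DG libraries (log2 fold change -0.34 ± 0.12, SE; limma adjusted p = 0.185). Npc2 and Npc1 hand cholesterol out of the lysosome. Npc2, the soluble partner, was at 112, 92.2 and 79.2 FPKM with vehicle and at 64.1, 79.0 and 98.6 FPKM with 2DG. It had the widest spread in FPKM, and its groups overlapped. Npc1, the membrane partner, lay between 9.52 and 11.8 FPKM in all 6 libraries.

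Soat1, which esterifies cholesterol for storage (chromosome 1, 156424525 to 156474331), was the 1 gene with all 2DG libraries above vehicle. It was at 20.2, 21.5 and 18.2 FPKM with vehicle and at 22.1, 25.4 and 23.9 FPKM with 2DG. The groups were narrowly apart, vehicle replicate 2 lying just below 2DG replicate 1, and the log2 fold change of 0.24 ± 0.09 (SE) had a limma adjusted p of 0.232.

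The 3 efflux genes all had estimates below 0, as had 52.1% of the tested loci. Abca1, the exporter to lipid-poor apolipoproteins (chromosome 4, 53030787 to 53159895), was at 4.09, 2.89 and 3.05 FPKM with vehicle and at 2.69, 2.08 and 1.98 FPKM with 2DG. All 2DG libraries lay below vehicle (limma adjusted p = 0.219). Its log2 fold change of FPKM + 1, -0.42 ± 0.15 (SE), was the largest in size of the 31 genes. In mean FPKM its ratio of 2DG to vehicle was 0.672, against 0.659 for Mylip. Abcg1, the exporter to HDL, was at 15.2, 24.1 and 24.0 FPKM with vehicle and at 18.3, 17.6 and 16.8 FPKM with 2DG. Vehicle replicate 1 was the lowest library of all, so the groups overlapped (log2 fold change -0.22 ± 0.17, SE; limma adjusted p = 0.557). Nr1h2, for LXR beta, which controls both exporters, was at 24.3, 28.1 and 27.0 FPKM with vehicle and at 20.3, 25.6 and 21.0 FPKM with 2DG. It overlapped only between 2DG replicate 2 and vehicle replicate 1 (log2 fold change -0.24 ± 0.11, SE; limma adjusted p = 0.299).

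A second kind of variation ran across the groups. In 5 of the 31 genes (16.1%) both replicate 1 libraries lay above the other 4 libraries, against 2.31% of the tested loci, a count made after the values were seen. In 1 gene, Pmvk, both lay below (3.23%, against 6.51%). The 5 genes were Hmgcs1, Idi1, Sqle, Sc4mol and Insig1. In Sc4mol, the clearest case, the replicate 1 libraries held 58.5 (vehicle) and 56.7 FPKM (2DG), and the other 4 lay between 39.2 and 45.5 FPKM. In Sqle the margin was small, 55.5 FPKM in vehicle replicate 1 against 55.1 FPKM in 2DG replicate 2. None of these 5 had groups that did not overlap, and their log2 fold changes lay between -0.10 and 0.13. Both replicate 1 libraries carry the number 17 in their titles, as both replicate 2 libraries carry 42 and both replicate 3 libraries 43. The labels do not give the meaning of these numbers. Both replicate 1 libraries also had the highest rough relative depths (1 and 1.10). The part of title number or depth in this pattern was not tested.

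**Figure D3:**
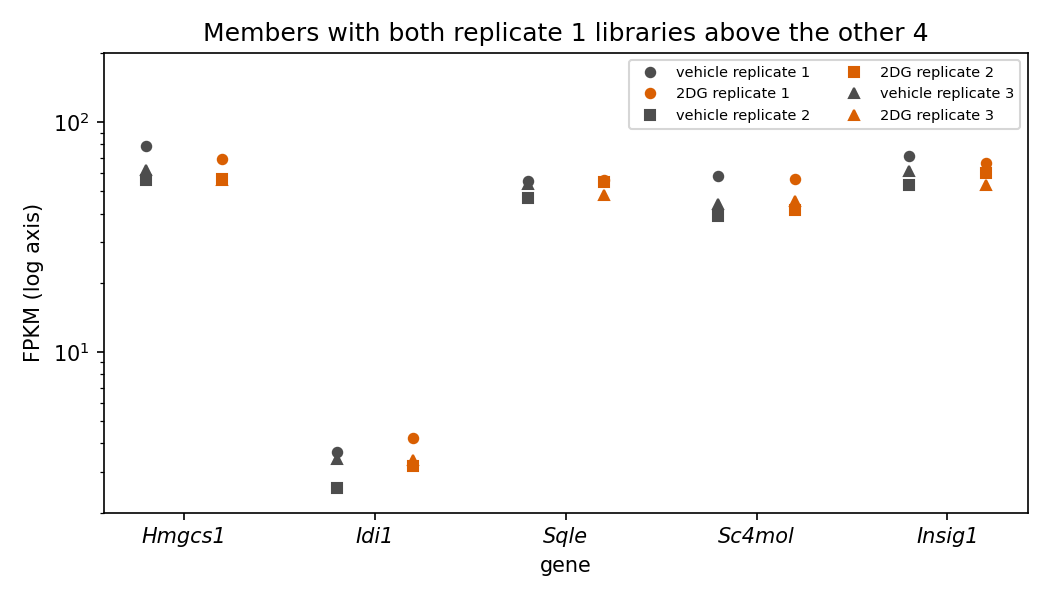
FPKM (log axis) of the 5 cholesterol genes in which both replicate 1 libraries (circles) lay above the other 4; grey is vehicle, orange is 2DG. In each gene the circles of both colours sit on top, in Sc4mol at 58.5 and 56.7 FPKM over 39.2 to 45.5 FPKM, and in Sqle by a small margin.

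Genes that border the cholesterol route did contain calls, on lists chosen with earlier results of these data known. Beside the counts below, the shares over all tested loci were 1.19% lower and 1.53% higher. On the list of SREBP1 fatty acid targets 4 of 12 tested genes fell and 0 rose with 2DG, with a median log2 fold change of -0.21. Scd1, which puts the double bond into stearate, was at 36.2, 34.5 and 32.0 FPKM with vehicle and at 15.2, 18.4 and 14.4 FPKM with 2DG. The groups lay far apart, and it fell by 1.06 ± 0.11 on the log2 scale (SE; limma adjusted p = 0.00653). The call held with any 1 library left out, and with replicates 2 and 3 only the adjusted p was 0.0644. Fads2, a desaturase of polyunsaturated fatty acids, went from 20.8 ± 0.659 to 13.7 ± 1.51 FPKM (SD, n = 3 each; limma adjusted p = 0.0311). Elovl6, an elongase, went from 10.6 ± 0.167 to 7.07 ± 0.891 FPKM (limma adjusted p = 0.0458). The locus of Acsl3, an acyl-CoA synthetase, shared with Utp14b, went from 42.1 ± 2.87 to 29.7 ± 2.73 FPKM (limma adjusted p = 0.0469). Fads2 and Acsl3 lost their call without any single library (highest adjusted p = 0.0992 and 0.128), and Elovl6 without any but 2DG replicate 3 (highest 0.170).

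On the list of lipoprotein uptake and lysosomal lipase genes 1 of 12 tested genes fell, 0 rose, and the median log2 fold change was -0.23. Lrpap1, the chaperone of lipoprotein receptors (chromosome 5, 35091501 to 35105766), was at 12.4, 14.8 and 12.4 FPKM with vehicle and at 8.40, 8.62 and 9.18 FPKM with 2DG. All 2DG libraries lay below vehicle, and it fell by 0.54 ± 0.10 on the log2 scale (SE; limma adjusted p = 0.0391). Without any single library its call was lost (highest adjusted p = 0.146). Scarb1, a receptor for HDL, had levels of 28.7 ± 2.47 (vehicle) and 21.1 ± 2.03 FPKM (2DG) and did not pass (limma adjusted p = 0.0812). Neither did Scarb2, a lysosomal membrane protein (27.9 ± 1.01 and 23.3 ± 1.58 FPKM; limma adjusted p = 0.160).

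Among LXR, RXR and LXR target genes 1 of 8 tested genes rose and 0 fell, with a median log2 fold change of -0.07. Pltp, the phospholipid transfer protein and a known LXR target, was at 1.72, 2.45 and 1.61 FPKM with vehicle and at 14.1, 14.8 and 7.69 FPKM with 2DG. The groups were well apart, and the log2 fold change was 2.14 ± 0.24 (SE; limma adjusted p = 0.00909), while the LXR targets Abca1 and Abcg1 had estimates below 0. The call held with any 1 library left out and was lost with replicates 2 and 3 only (adjusted p = 0.0730); 19.3% of the exon bases of Pltp overlap Ctsa on the opposite strand. Abca7 and Rxra did not pass, although all their 2DG libraries lay below vehicle (9.63 ± 0.962 and 6.73 ± 1.11 FPKM for Abca7, 3.81 ± 0.383 and 2.84 ± 0.262 FPKM for Rxra; limma adjusted p = 0.124 and 0.207).

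On the list of oxysterol synthesis and sensing 1 of 5 tested genes rose and 0 fell (median log2 fold change 0.25). Rora, a sterol-binding nuclear receptor of Th17 cells, went from 12.9 ± 0.968 to 22.8 ± 2.25 FPKM (SD, n = 3 each; limma adjusted p = 0.0158; 0.0562 without 2DG replicate 1). Of the other synthesis genes on the lists, 0 of 8 tested passed in either direction (median -0.04). Lbr, a nuclear envelope protein with the same sterol reductase activity as Tm7sf2, had levels of 152 ± 1.97 (vehicle) and 120.1 ± 7.68 FPKM (2DG), with all 2DG libraries lower (limma adjusted p = 0.0661).

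**Figure D4:**
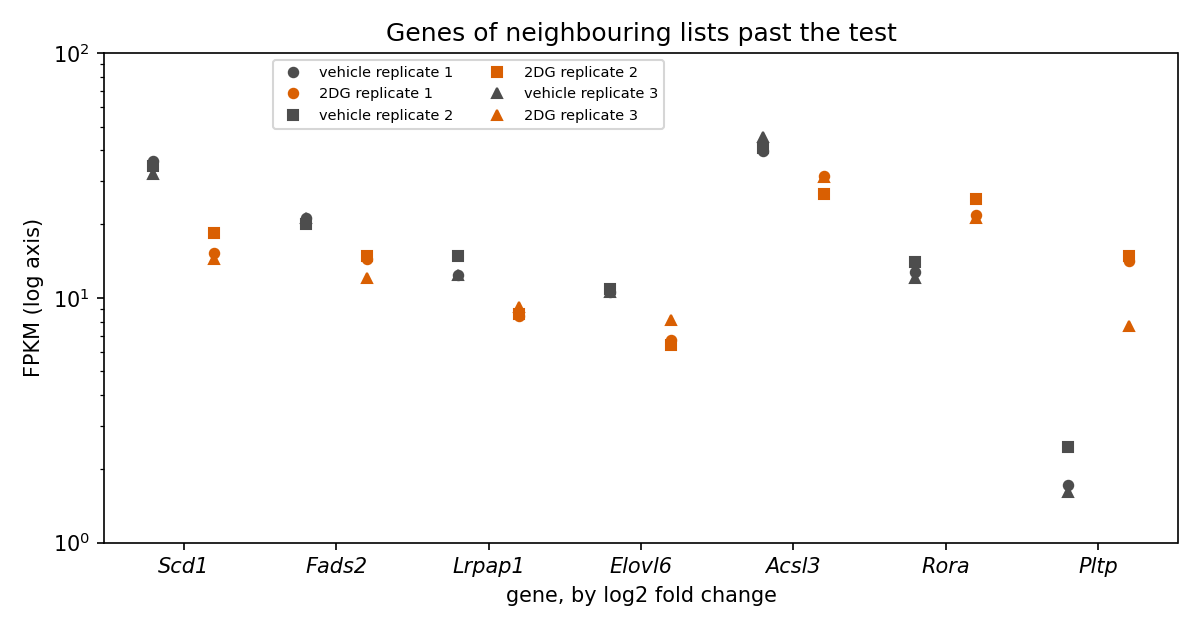
FPKM (log axis) per library of the 7 genes on neighbouring lists that passed the test; grey points are vehicle, orange points 2DG, and the marker shape gives the replicate number. The groups do not overlap in any of the 7: Scd1, Fads2, Lrpap1, Elovl6 and Acsl3 lie lower with 2DG, Rora and Pltp higher.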

How the data were processed

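RNA of 3 vehicle and 3 2DG Th17 cultures was sequenced. Per the submitters' processing notes, Cuffdiff 2.2.1.3, Cuffnorm 2.2.1.1, Cufflinks 2.2.1.0 and TopHat2 2.1.0 were used with build mm10; their settings, annotation, strand and scaling are not given in the sources. The authors deposited 1 FPKM value for each locus in each library. FPKM are no counts, so limma 3.58.1 in R 4.3.3 was run on log2(FPKM + 1), group only, lmFit and eBayes with a trend, two-sided, for 10228 of 23203 loci (mean of at least 1 FPKM). A single-gene exact permutation test of 3 against 3 cannot go below 0.1 and was not used. The code was tested on simulated data with independent normal errors, which does not cover a pattern shared by same-numbered libraries. Genes and lists were chosen with earlier results of these data known. All members are named, as are genes of the neighbouring lists past the test and some others of smallest p per list; some list genes are not reported here. Symbols were matched in loci split at commas. Gene coordinates and exon overlaps are from GENCODE M21 (GRCm38, which mm10 denotes) and promoter windows from RefSeq (GRCm38.p6). Alternatives changed the pseudocount, filter, scaling, small RNA genes, variance moderation, replicate block and libraries. Python 3.11.15 with matplotlib 3.10.9 drew the figures.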

Additional observations from a re-analysis of the deposited data

How the results depend on the processing

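No cholesterol gene was called higher under any of the 16 alternatives, and 1, Ebp, was called lower under 3 of them: with quantile normalization, without small RNA genes and with robust eBayes the count was 1 each. Over all loci, robust eBayes gave 247 higher and 199 lower, dropping small RNA genes gave 270 and 246, no filter gave 100 and 65, and the counts were 43 and 28 with replicates 2 and 3 only and ran from 52 to 98 and from 25 to 69 with 1 library left out. For the other pathway genes (2 higher, 5 lower) they were 4 higher without small RNA genes, 3 lower with equal sums outside small RNA genes, 1 lower with no filter, 0 and 0 with replicates 2 and 3 only, and 1 to 3 and 1 to 2 with 1 library left out. The vehicle and 2DG libraries of a replicate share a title number, 17, 42 and 43 for replicates 1, 2 and 3. The labels do not say whether it marks shared mice or batches, and the main fit did not pair these libraries. Deviations from the group means of same-numbered libraries correlated with r of -0.08, 0.45 and -0.24. Between libraries of different numbers r ran from -0.38 (vehicle replicate 1 with 2DG replicate 2) to 0.47 (vehicle replicate 1 with 2DG replicate 3). With the replicate block 57 loci were higher and 44 lower, no cholesterol gene was called, and 1 other pathway gene was lower. With this block 10 cholesterol genes had an unadjusted limma p under 0.05, against 8 in the main fit. Of 493 values of cholesterol genes under an alternative, 34 changed sign, in 14 genes, each with an unadjusted p of at least 0.376; the cause was not tested. With 1 library left out, log2 fold changes ran from -0.21 to 0.032 for Hmgcs1, -0.041 to 0.095 for Fdft1, -0.044 to 0.093 for Sqle, -0.066 to 0.028 for Lss, -0.11 to 0.049 for Cyp51, -0.27 to 0.057 for Tm7sf2, -0.097 to 0.19 for Sc4mol, -0.042 to 0.13 for Nsdhl, -0.015 to 0.24 for Hsd17b7, -0.078 to 0.18 for Sc5d, -0.13 to 0.099 for Scap, -0.15 to 0.063 for Insig1 and -0.095 to 0.17 for Insig2. With replicates 2 and 3 only, values of changed sign were -0.093 for Fdft1, 0.041 for Lss, 0.0023 for Tm7sf2, -0.11 for Sc5d, -0.087 for Scap and 0.046 for Npc2. With equal sums they were 0.032 for Lss and 0.022 for Cyp51, and with quantile normalization 0.011 for Cyp51. The 8 genes whose 2DG libraries all lay below vehicle, and Soat1, kept their sign under all 16. Depth is unknown, so counting error could not be separated from other spread.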

Other observations

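Other lists around the cholesterol route held no call. Of 16 tested genes of the prenyl, dolichol and ubiquinone branches, which draw on the same farnesyl pyrophosphate, 0 passed in either direction (median log2 fold change -0.03), and Fntb, a subunit of farnesyltransferase, had the smallest adjusted p by limma (5.67 ± 0.538 FPKM with vehicle, 6.79 ± 0.643 FPKM with 2DG, SD, n = 3 each; adjusted p = 0.348). Rabggtb shared its locus with Snord45c, a small RNA gene, and the 8739 and 5383 FPKM of that locus do not give the level of the prenyltransferase. Of 15 tested genes of SREBP processing and turnover 0 passed (median -0.01); Sec24d, a coat protein of vesicles leaving the endoplasmic reticulum, was at 6.41 ± 0.845 and 9.14 ± 0.522 FPKM with no overlap (limma adjusted p = 0.0835). Of 18 tested sterol transfer genes 0 passed (median -0.01); Gramd1b, which carries cholesterol from the plasma membrane to the endoplasmic reticulum, was at 15.4 ± 2.92 and 23.1 ± 3.44 FPKM with no overlap (limma adjusted p = 0.123). The gene 0610007P14Rik, on the list of other sterol synthesis genes, was at 108 ± 14.01 and 149 ± 5.77 FPKM with no overlap (limma adjusted p = 0.0667).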
